A study of Mus musculus with 26 samples.

Results

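Open chromatin was compared between nonpermissive and control supporting cells of the mouse cochlea after 48 h of culture, over 4 peak lists from the assay for transposase-accessible chromatin (ATAC), 2 per group. These are 4 of the 26 samples of the series. Their peaks were merged wherever they shared at least 1 bp on chromosomes 1 to 19 and X, which gave 261658 regions. All 4 lists are taken by their labels, so no measured value chose them.

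Cochleae of mice at postnatal day 1 were kept as organ cultures in L15 medium with N2, B27, EGF and FGF. They received either DAPT, which inhibits the protease gamma-secretase and so blocks Notch signalling, or DMSO, its solvent. After dissociation with trypsin, supporting cells were sorted by a TdTomato reporter (TdT) recombined by CreER under the Lfng promoter. The control cells came from DMSO cultures and carried TdT only. The nonpermissive cells came from DAPT cultures and also carried TdT only, whereas DAPT-treated cells that carried both TdT and Atoh1-GFP are called permissive. Both groups thus share the reporters, the culture and the growth factors, and they differ in the agent and in what the sort removed. Lfng is itself tied to Notch signalling, and a cell is nonpermissive because its Atoh1 reporter is dark, so values at Atoh1 are linked to the sort. The labels do not say that replicates are separate animals, so each spread and p-value refers to these samples and may be technical. RNA at 48 h (2 control and 3 nonpermissive samples) and the histone mark H3K27ac (2 lists per group) served as separate readouts, and the 2 permissive ATAC lists only to say where a peak was also present.

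In the newborn organ of Corti, hair cells carry Notch ligands that activate Notch receptors on neighbouring supporting cells. Gamma-secretase then frees the intracellular part of the receptor, which joins the DNA-binding protein RBPJ and switches on Hes and Hey genes, whose products repress Atoh1, the transcription factor that starts hair cell development. When Notch is blocked in the young cochlea some supporting cells turn into hair cells and others do not, and the comparison asks what the chromatin of the latter looks like. ATAC marks DNA that the Tn5 transposase can reach, and H3K27ac marks active promoters and enhancers.

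The promoters on which the gene-level results turn are printed here, each as the 250 bases before an annotated start (RefSeq, GRCm38.p6), 5′ to 3′ on the gene's strand. Those of Hes5, Lfng and Hey2 show the 6-base core bound by RBPJ (TGGGAA, searched on both strands) in capitals. The promoters of Nrarp, also a Notch target, and Jag1 were searched as well and held no match, and Atoh1, printed beside the others, held none either. Gja1 and Chn1 are shown because a peak over the start was present in 1 of the 2 compared groups only. Any match to the AP-1 motif (TGANTCA) is in capitals there. The 2 starts of Tecta are shown because their regions differed in opposite directions, with the SOX motif (ACAANG) in capitals.

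Hes5, chr4:154960673-154960922, plus strand: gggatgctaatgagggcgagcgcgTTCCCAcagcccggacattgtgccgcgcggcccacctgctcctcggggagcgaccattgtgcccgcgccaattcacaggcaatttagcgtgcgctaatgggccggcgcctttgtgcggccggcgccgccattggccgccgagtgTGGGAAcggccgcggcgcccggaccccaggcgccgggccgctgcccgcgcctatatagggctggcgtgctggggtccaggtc

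Lfng, chr5:140607091-140607340, plus strand: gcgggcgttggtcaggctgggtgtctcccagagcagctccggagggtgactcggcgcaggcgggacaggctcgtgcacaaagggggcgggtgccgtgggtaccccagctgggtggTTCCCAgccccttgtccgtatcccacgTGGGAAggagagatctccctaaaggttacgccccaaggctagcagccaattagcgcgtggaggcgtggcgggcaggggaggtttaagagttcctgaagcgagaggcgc

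Hey2, chr10:30842784-30843033, minus strand: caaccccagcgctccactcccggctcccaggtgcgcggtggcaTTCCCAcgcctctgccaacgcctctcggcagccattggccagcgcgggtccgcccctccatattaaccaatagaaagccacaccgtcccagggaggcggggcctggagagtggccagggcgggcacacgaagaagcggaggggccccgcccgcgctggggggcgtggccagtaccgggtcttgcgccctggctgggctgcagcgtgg

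Atoh1, chr6:64728875-64729124, plus strand: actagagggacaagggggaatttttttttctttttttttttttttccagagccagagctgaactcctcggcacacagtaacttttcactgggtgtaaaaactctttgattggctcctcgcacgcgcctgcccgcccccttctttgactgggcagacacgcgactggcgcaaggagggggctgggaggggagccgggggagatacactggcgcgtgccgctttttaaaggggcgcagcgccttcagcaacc

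Gja1, chr10:56377050-56377299, plus strand: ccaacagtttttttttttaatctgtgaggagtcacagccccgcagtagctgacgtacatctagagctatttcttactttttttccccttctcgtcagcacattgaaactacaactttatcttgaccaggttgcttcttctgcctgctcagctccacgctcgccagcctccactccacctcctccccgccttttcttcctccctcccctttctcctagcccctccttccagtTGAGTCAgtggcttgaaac

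Chn1, the start with a control-only peak, chr2:73660424-73660673, minus strand: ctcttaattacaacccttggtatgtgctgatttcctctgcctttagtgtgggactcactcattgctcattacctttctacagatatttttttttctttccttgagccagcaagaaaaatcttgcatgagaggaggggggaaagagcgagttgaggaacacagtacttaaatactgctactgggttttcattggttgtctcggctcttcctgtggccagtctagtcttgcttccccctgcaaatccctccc

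Tecta, the start whose region was higher in nonpermissive cells, chr9:42401691-42401940, minus strand: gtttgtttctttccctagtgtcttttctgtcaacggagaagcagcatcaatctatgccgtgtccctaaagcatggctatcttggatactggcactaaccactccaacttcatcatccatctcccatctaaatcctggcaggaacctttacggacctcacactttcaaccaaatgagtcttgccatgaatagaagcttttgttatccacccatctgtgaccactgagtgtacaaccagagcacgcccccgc

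Tecta, the start whose region was lower, chr9:42399948-42400197, minus strand: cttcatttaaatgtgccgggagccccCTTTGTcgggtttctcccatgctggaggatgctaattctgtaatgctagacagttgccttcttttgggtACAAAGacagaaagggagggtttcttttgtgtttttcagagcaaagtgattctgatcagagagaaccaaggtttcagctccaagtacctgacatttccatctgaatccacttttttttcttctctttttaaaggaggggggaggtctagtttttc

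The Hes5 promoter held 2 RBPJ matches, 226 and 82 bases before the start, the Lfng promoter 2 at 135 and 108 bases, and the Hey2 promoter 1 at 207 bases. A match describes the letters and is neither a site nor a cause. RBPJ matches were also found in 25.4% of all 32619 promoter windows of 300 bases.

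The 4 libraries did not fall into their groups by list length, signal or overlap, and this bears on every result below. Control 1 and nonpermissive 2 gave the longer lists, with 129676 and 126982 separate intervals, against 105346 in control 2 and 110121 in nonpermissive 1. Fold enrichment, the peak's signal over its local background as the peak caller wrote it, had a median of 6.68 in control 1 and 6.60 in nonpermissive 2 over the regions with a peak in every list. The medians of control 2 and nonpermissive 1 were 4.61 and 3.87. Over those regions the Pearson correlation of log2 fold enrichment was 0.753 between the control libraries and 0.762 between the nonpermissive libraries. Across the groups it was 0.768 between control 1 and nonpermissive 2. The other pairs across the groups were below both within-group values: 0.719 (control 1 with nonpermissive 1), 0.740 (control 2 with nonpermissive 1) and 0.732 (control 2 with nonpermissive 2). These are correlations across regions, which are not independent replicates and which share the depth and signal of their library. Read depth is not in the peak lists and is unknown here, so no interval can be given for a region that lacks a peak.

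Markers of the sorted cells were present in both groups. A peak lay within 1 kb of 7, 7, 7 and 8 of the 8 supporting cell markers in control 1, control 2, nonpermissive 1 and nonpermissive 2. Of the 6 hair cell markers, 6, 4, 5 and 6 had one, and the 6 mesenchyme markers had one in every list. Summed RNA of the supporting cell markers was 7020 to 12245 CPM (counts per 1000000 counts of the library) in control and 4395 to 12757 in nonpermissive cells. Tecta made most of this sum, with 9338 and 4738 CPM in control and 10233, 2727 and 4302 in nonpermissive cells. Lfng and Slc1a3 were lower in every nonpermissive library than in control, and the other supporting cell markers overlapped. Summed hair cell marker RNA was 19.2 and 29.6 CPM in control against 76.6, 85.4 and 131 in nonpermissive cells. In nonpermissive cells most of it was Atoh1 (35.5, 33.3 and 65.5), which is linked to the sort, and Pou4f3 (28.9, 34.2 and 43.0). Gfi1, Barhl1 and Otof were also higher in every nonpermissive library, at 6.93 CPM or less. Myo7a overlapped, with 6.74 and 16.1 CPM in control against 7.56, 8.31 and 11.85. The endothelial sum (Kdr, Pecam1, Cdh5 and Tie1) was 11.2 and 11.3 against 208, 54.5 and 159 CPM, and the mesenchyme sum 333 and 626 against 1115, 2056 and 1070. Lum alone made the mesenchyme sum higher, since Pdgfrb was 50.4 and 59.8 CPM in control against 12.2, 1.85 and 20.3, and none of the other 5 mesenchyme markers was higher in every nonpermissive library than in control. Neurog1 and Gfra3, markers of spiral ganglion neurons and glia, were at 0 in the 3 nonpermissive RNA libraries. The part of these other cell types in the ATAC results was not tested, and in such bulk samples fewer cells with an open region and a less open region in each cell cannot be told apart.

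Few regions were held by one group's pair of lists alone. A peak was present in both nonpermissive lists and neither control list in 4208 regions, 1.61% of all, and in both control lists and neither nonpermissive list in 5023, 1.92%. More regions, 12932, were shared by control 1 and nonpermissive 2 only, the longer lists of either group, while control 1 with nonpermissive 1 alone shared 3761, control 2 with nonpermissive 2 alone 3436 and control 2 with nonpermissive 1 alone 1463. A peak in all 4 lists was found in 38182 regions (14.6%), in 3 lists in 20449 (7.82%) and in a lone list in 172204 (65.8%). Presence in a list has no error model, so the group-only counts are descriptions with no test.

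**Figure D1:**
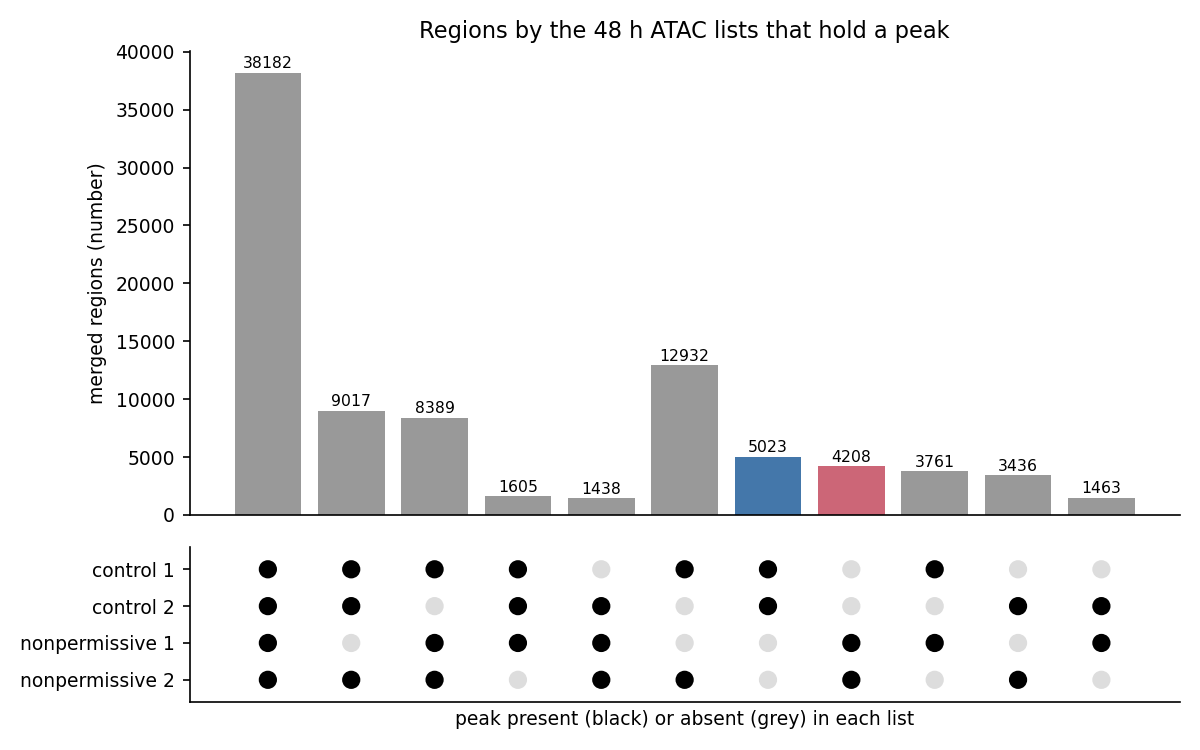
Number of merged regions (vertical axis) for each combination of 2 to 4 lists that hold a peak, marked below by black dots; blue is control only, red nonpermissive only. The bar for control 1 with nonpermissive 2 (12932) is higher than those for the 2 control lists (5023) and the 2 nonpermissive lists (4208).

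Group-only regions were weaker and narrower than regions in all 4 lists. In the nonpermissive-only regions the median fold enrichment was 2.52 in nonpermissive 1 (range 1.73 to 5.32) and 3.25 in nonpermissive 2 (1.63 to 10.6). The control-only regions had medians of 3.42 in control 1 (1.65 to 13.3) and 3.05 in control 2 (1.81 to 7.68). Their median widths were 290 and 300 bases, against 625 bases for regions in all 4 lists and 209 bases over all merged regions. Regions shared by control 1 and nonpermissive 2 only were alike, with a median width of 300 bases and median fold enrichments of 3.47 and 3.42. With only peaks whose deposited −log10 q was at least 5, the counts were 843 nonpermissive-only and 1518 control-only regions.

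Of all merged regions, 8.67% were within 1 kb of a start, 55.5% within a gene and 32.8% intergenic. Of the nonpermissive-only regions, 313 (7.44%) were within 1 kb of an annotated start, 2575 (61.2%) lay within a gene and 1192 (28.3%) were intergenic. Of the control-only regions, 279 (5.55%) were at a start, 2944 (58.6%) within a gene and 1704 (33.9%) intergenic. Regions in all 4 lists were at a start in 30.4% of cases. The median distance to the nearest start was 14711 bases for nonpermissive-only, 19014 for control-only and 5248 for regions in all 4 lists, against 16971 over all regions. More than 100 kb from any start were 7.72% of the nonpermissive-only and 11.4% of the control-only regions. The regions shared only by control 1 and nonpermissive 2 had values of the same kind (7.36% at a start, median distance 16204.5 bases).

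H3K27ac was found over both classes in both groups. A peak of the mark overlapped 11.5% and 11.6% of nonpermissive-only regions in control 1 and 2, and 31.6% and 10.4% in nonpermissive 1 and 2. For control-only regions the shares were 16.3% and 12.6% in the control lists and 30.3% and 9.74% in the nonpermissive lists. Over all merged regions they were 12.3%, 11.9%, 23.3% and 10.6%. The nonpermissive 1 list of H3K27ac covered more regions of every class, 65.7% of those open in all 4 lists against 43.1% to 45.7% in the other lists. A mark in both nonpermissive lists and in neither control list was found over 111 nonpermissive-only (2.64%) and 94 control-only (1.87%) regions, against 1.5% of all regions and 3.67% of those in all 4 lists. The reverse, a mark in both control lists only, was found over 12 nonpermissive-only (0.285%) and 40 control-only (0.796%) regions, against 0.251% of all.

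Permissive cells were also treated with DAPT. Both permissive ATAC lists held a peak in 579 (13.8%) of the nonpermissive-only and 540 (10.8%) of the control-only regions, and neither held one in 49.5% and 53.3%. Over all merged regions 15.1% were in both permissive lists and 63.1% in neither. Of the regions in all 4 lists, 64.8% were in both permissive lists. The permissive lists differed from each other, since the second overlapped 47.8% of nonpermissive-only regions and the first 16.5%.

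**Figure D2:**
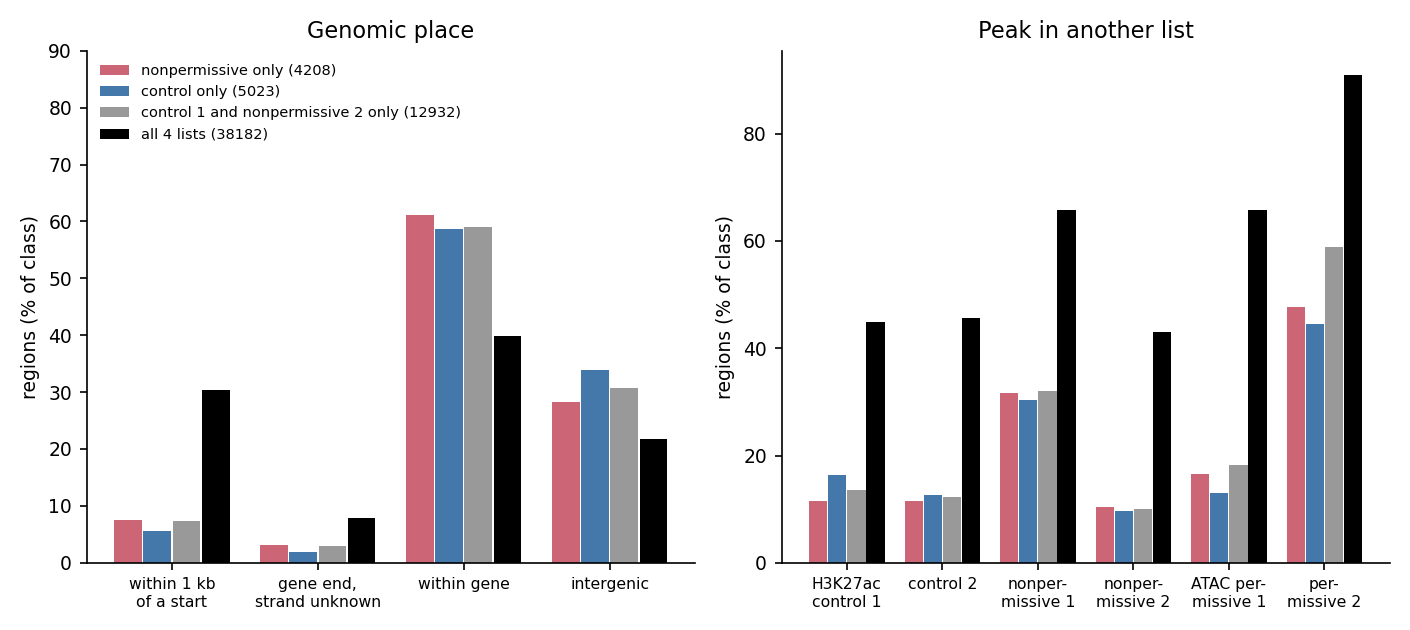
Share of regions of each class (vertical axis, percent) by genomic place on the left and by a peak in another list on the right; bars are the nonpermissive-only, control-only, control 1 with nonpermissive 2 only, and all-4-list classes. The 3 classes held by 2 lists have similar bars (5.55% to 7.44% at a start), while 30.4% of regions in all 4 lists are at a start.

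The 12 nonpermissive-only regions with the highest fold enrichment, 1 per nearest gene, were taken by the lower of their 2 values. They lay nearest to Fscb, Alcam (a cell adhesion molecule), Dnah2 (an axonemal dynein heavy chain), Slc12a8, Atp5mpl, Serpinb1c, Rag1, Spp2, Stxbp6, Oca2, Ccdc69 and Dcdc2c. Values ran from 4.19 to 5.16 in nonpermissive 1 and from 5.02 to 10.0 in nonpermissive 2. The Fscb region (chr12:64692467-64693107, 218 kb upstream, intergenic) had values of 5.16 and 7.0 and was also open in both permissive lists at 8.38 and 18.8. The Alcam region (chr16:52569071-52569528, 116 kb upstream, intergenic) had 5.16 and 5.31. In all, 7 regions were intergenic and 5 within a gene, 10 were in the second permissive list and 3 in the first, and 7 carried no H3K27ac peak in the 4 control and nonpermissive lists. RNA of 7 of these genes could be tested and none passed, with a median log2 change of 0.16 against 0.00 over all genes tested.

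The 12 strongest control-only regions lay nearest to Trim33 (a ubiquitin ligase of the TGF-beta pathway), Arhgef6 (an exchange factor for Rac and Cdc42), Ncald, Cpne3, Zc3h15, F2 (prothrombin), Pdgfc (a growth factor), Tmtc2, Ric3, Gpc5 (a cell surface proteoglycan), Lingo2 and Slamf7. Values ran from 5.61 to 12.4 in control 1 and from 5.44 to 6.80 in control 2. The Trim33 region (chr3:103410703-103411557, intergenic, 51.9 kb from the gene) had 10.1 and 6.80. The Arhgef6 region (chrX:57277538-57278361, 48.2 kb into the gene) had 6.37 and 6.67 and carried H3K27ac in all 4 control and nonpermissive lists. Here 9 regions were within a gene and 3 intergenic, and 6 were in neither permissive list. RNA of 9 of the genes was tested, none passed, and the median log2 change was −0.98. Arhgef6 RNA was 103 and 146 CPM in control and 36.0, 22.3 and 29.1 in nonpermissive cells. The change missed the threshold (log2 −2.09 ± 0.58, SE, adjusted p 0.271, edgeR quasi-likelihood).

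None of these 24 regions lay at a gene start, so the strongest group-only peaks at starts are given separately, singled out after their values were seen. The nonpermissive-only set with the highest values comprised Apc2, Dpf3, Echs1, Plekha4, Klhl34, Galt, Rd3 and Gja1. Gja1 encodes connexin 43, a gap junction protein. Its start region (chr10:56377138-56377628) had fold enrichments of 3.20 and 3.85 and no peak in control, and a second region 0.52 kb downstream was open in all 4 lists (4.55, 3.15, 3.69 and 5.10; log2 difference 0.33). H3K27ac was present over the Gja1 start region in both control lists (3.42 and 5.66) and in nonpermissive 1 (3.55). The second permissive ATAC list also held a peak over it (4.08), and the first did not. Gja1 RNA was 6.17 and 9.13 CPM in control and 22.1, 29.7 and 88.0 in nonpermissive cells. The change did not pass the test (log2 2.61 ± 1.03, SE, edgeR adjusted p 0.568).

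Control-only starts with the highest values were those of Agtr1b, Chn1, Tctex1d1, Ddc, Kcnj3, Icam5, Cysltr2 and Frmd4a. Chn1 encodes chimaerin 1, which inactivates Rac. Its control-only start (chr2:73659998-73660541) had 4.69 and 4.07, and the upstream start of the same gene was open in all 4 lists (6.0, 3.81, 4.19 and 6.13). Over the control-only start the second permissive list held an ATAC peak (5.85), and both permissive lists an H3K27ac peak (5.29 and 3.19). Of the 8 nonpermissive-only and the 8 control-only starts named here, 6 each were in the second permissive ATAC list, and 2 and 3 in the first. Cysltr2, a leukotriene receptor, had 5.61 and 3.81 in control and no peak in nonpermissive or permissive cells. Chn1 and Frmd4a were the genes of this set whose RNA could be tested, with log2 changes of −1.16 and −1.37 that did not pass.

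Group-only regions did not gather at few genes. The most nonpermissive-only regions within 100 kb of a start were 5 for Atxn1, followed by 4 each for Dip2b, Ephb1, Lmo7, Ntn1, Rnf150 and Schip1. The most control-only regions were 5 each for Bend5, Pakap and Stk39, and 4 each for Arhgap21, Sipa1l1 and Zfp521. These counts stand among many others: Atxn1 had 65 regions in that window and Pakap 66.

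Fold enrichment was tested in the 38182 regions with a peak in all 4 lists. After each library was centred on its median, 4 regions were lower in nonpermissive cells and 0 were higher at an adjusted p under 0.05 (limma; 0.0105% called). At an unadjusted p under 0.05 there were 1259 lower regions (3.30%) and 1162 higher regions (3.04%), together 6.34%. The difference, nonpermissive minus control in log2, had a median of 0.04 and an SD of 0.33 over regions, and its 5% and 95% quantiles were −0.55 and 0.54. Without overlap between the groups were 7415 regions (19.4%) on the higher and 5676 (14.9%) on the lower side. A difference of more than 2-fold was seen in 234 regions, 88 higher and 146 lower.

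The 4 lower regions lay at Tle1, Nkain2, Ldhb and Snap25, and none was at a gene start. Tle1 encodes a co-repressor that works with Hes proteins. Its region (chr4:72049611-72050353, intergenic, 151 kb beyond the start) had fold enrichments of 15.0 and 9.66 in control and 1.93 and 4.43 in nonpermissive cells. Relative to each library's median these were 2.24, 2.10, 0.50 and 0.67, so both control values stood well above both nonpermissive values. The log2 difference was −1.90 ± 0.30 (SE, limma adjusted p 0.0125). Nkain2 encodes a membrane protein that binds the sodium pump, and its region (chr10:32881915-32882469, 7.45 kb into the gene) had 10.6 and 6.10 against 2.10 and 2.36. The Nkain2 difference was −1.72 (limma adjusted p 0.0407). The region of Ldhb, a lactate dehydrogenase subunit (chr6:142496358-142496964, 11 kb from the start, within a gene), had 9.53 and 7.99 against 2.26 and 2.66, a difference of −1.70 (limma adjusted p 0.0407). Snap25 encodes a membrane fusion protein of synapses, and its region (chr2:136779733-136780277, within the gene) had 9.90 and 7.17 against 2.26 and 2.66, a difference of −1.65 (limma adjusted p 0.0463).

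H3K27ac, permissive cells and RNA gave separate readouts of these 4 regions. H3K27ac peaks overlapped all 4 in control 1 and nonpermissive 1 and 3 of them in control 2 and nonpermissive 2. At Nkain2 the mark's fold enrichment was 5.33 and 3.09 in control and 10.3 and 7.18 in nonpermissive cells, with no peak in either permissive list. Permissive cells had an ATAC peak only at Ldhb, in the second list (4.32). RNA changed by log2 −0.84 for Tle1, −0.35 for Nkain2, −0.22 for Ldhb and 0.69 for Snap25, none past the test, and Snap25 RNA was at most 5.14 CPM. The 4 calls rest on the libraries used: without control 1 none passed, without control 2 the Ldhb and Snap25 calls were lost, and without nonpermissive 2 those of Nkain2, Ldhb and Snap25. All 4 were also lost without centring and after quantile normalisation, while the sign held in all 9 alternatives that kept the regions. In nonpermissive 1 their peaks were weak: the values of 1.93 to 2.26 lay below that library's median in nonpermissive-only regions (2.52).

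Among the 5 next largest falls without overlap, none called (limma adjusted p 0.153 to 0.210), were regions near Epha3, an ephrin receptor, Grin3a, an NMDA receptor subunit, Lingo2, Ifih1 and Cdh20, with differences of −1.47, −1.42, −1.41, −1.36 and −1.36. The 5 largest differences on the higher side were not called either. Herpud1, a component of protein quality control at the endoplasmic reticulum, had a region 10.9 kb from its start (chr8:94397350-94397664) with 2.75 and 3.19 in control and 5.32 and 10.3 in nonpermissive cells, a difference of 1.45 (limma adjusted p 0.153). Gprc5c, Nt5m and Wdr25 followed with 1.38, 1.35 and 1.17.

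The remaining region of these 5 was at a start of Tecta, which encodes alpha-tectorin of the tectorial membrane, made by supporting cells. It (chr9:42401145-42401887) had 3.29 and 3.20 in control and 5.72 and 8.14 in nonpermissive cells, a difference of 1.21 (limma adjusted p 0.245), and carried H3K27ac in all 4 control and nonpermissive lists. The region at the other Tecta start (chr9:42399786-42400226), looked at after this value was seen, went the other way with 5.75 and 4.83 against 2.46 and 4.11 (−0.59, limma adjusted p 0.808). No SOX match lay in the printed sequence of the first start and 2 in that of the second. Tecta RNA was 8550 and 4884 CPM in control and 8691, 3371 and 4414 in nonpermissive cells, values that overlap.

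Regions on the lower side at an unadjusted p under 0.05 were further from starts than those on the higher side. A start lay within 1 kb of 7.39% of the lower and 19.5% of the higher regions, and the median distances were 21275 and 9048 bases. More than 100 kb from any start were 13.6% and 4.73%. Over all regions in all 4 lists, 30.4% were at a start, the median distance was 5248 bases and 4.89% lay beyond 100 kb. Both sets thus had fewer regions at a start than the regions tested. The lower and higher sets were chosen by the values they describe, so no test is given.

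**Figure D3:**
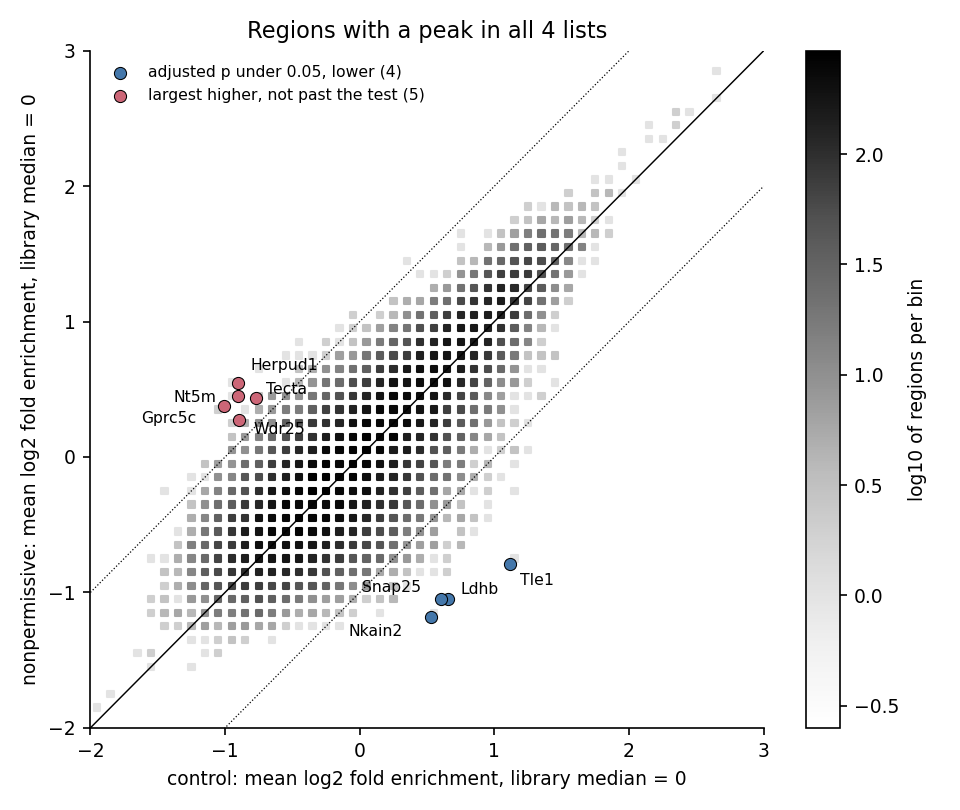
Mean log2 fold enrichment of the 2 control libraries (horizontal) against the 2 nonpermissive libraries (vertical), each library centred on its median; grey squares are bins shaded by the number of regions, the solid line is equality and dotted lines are 2-fold. The 38182 regions follow the line, the 4 called regions lie below the lower dotted line and the 5 largest higher regions above the upper one.

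The Notch target genes had open starts in both groups. Hes5, a Notch target that represses Atoh1, had a region over its start (chr4:154960568-154961132) with 3.12, 2.75, 2.99 and 2.87 in control 1, control 2, nonpermissive 1 and nonpermissive 2, a log2 difference of 0.14. As deposited, all 4 values lay within a narrow range, and the centred values overlapped. This is the promoter printed above with 2 RBPJ matches. H3K27ac covered the Hes5 start in both control lists (3.04 and 4.11) and had no peak there in any nonpermissive or permissive list. Hes5 RNA was 298 and 813 CPM in control and 2.23, 0 and 1.92 in nonpermissive cells (log2 −8.45 ± 1.10, SE, edgeR adjusted p 0.00647). That fall missed the threshold without nonpermissive replicate 3 (edgeR adjusted p 0.0559).

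A distal Hes5 region was lower without passing the test. At 11.9 kb upstream (chr4:154948334-154948989, intergenic) fold enrichment was 6.55 and 6.37 in control and 3.62 and 2.81 in nonpermissive cells. Relative to each library's median the values were 0.98, 1.38, 0.93 and 0.43, so the groups did not overlap but control 1 and nonpermissive 1 nearly met (limma difference −0.88 ± 0.33, SE, adjusted p 0.633). A neighbouring region 14.1 kb upstream had 6.80, 5.79, 5.34 and 8.40 (0.23). Its groups overlapped as deposited, while the centred values (1.02, 1.26, 1.38 and 1.27) were slightly higher in nonpermissive cells.

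The Hey genes encode related repressors. Heyl had a region at an end of the gene whose strand is not known here (chr4:123233463-123234129), with 7.80 and 5.11 in control and 3.17 and 3.59 in nonpermissive cells. Centred values were 1.17, 1.11, 0.82 and 0.54, without overlap (limma difference −0.77, adjusted p 0.668). The other end of Heyl had 3.59, 2.65, 2.93 and 3.18. Heyl RNA fell from 226 and 243 CPM to 14.2, 8.56 and 27.5 (log2 −3.79 ± 0.63, SE, edgeR adjusted p 0.0267), a call lost when any of the 5 libraries was left out. Hey2 was open at its start (chr10:30842302-30843546) with 9.31, 8.26, 9.57 and 12.6 (limma difference 0.46, adjusted p 0.912). Centred values there were 1.39, 1.79, 2.47 and 1.91, higher in nonpermissive cells without overlap. Of all regions tested, 19.4% were higher and 14.9% lower without overlap. A control-only peak of 2.68 and 2.49 lay 0.85 kb upstream of Hey2. Hey1 had 6.31, 4.73, 5.57 and 6.66 at a gene end (0.29). Hey1 RNA was 1249 and 375 CPM against 156, 68.5 and 78.4, short of the threshold (log2 −3.0, edgeR adjusted p 0.139).

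Other parts of the pathway were likewise open in both groups. Nrarp, a feedback inhibitor of Notch, had 5.09, 4.50, 5.95 and 6.92 at its start (0.56), with a control-only peak 2.60 kb upstream (2.93 and 3.15). Centred values at the Nrarp start were 0.76, 0.98, 1.54 and 1.05, higher in nonpermissive cells without overlap (limma adjusted p 0.848). Lfng, whose product modifies Notch receptors and whose promoter drives the Cre, had 3.28, 3.39, 2.39 and 3.82 at its start (−0.01, a sign that changed with the scaling). At 12.2 kb downstream Lfng had 3.11, 2.50, 3.04 and 5.09 (0.63). Centred values there were 0.46, 0.54, 0.79 and 0.77, also higher in nonpermissive cells without overlap (limma adjusted p 0.766). The ligand Jag1, expressed by supporting cells, had 7.41, 5.15, 4.63 and 6.96 at its start (0.01, a sign that changed with the scaling). Within Jag1, 2 nonpermissive-only peaks (2.56 and 2.35; 2.49 and 2.24) and 1 control-only peak (2.59 and 2.40) were found, all weak. RNA of Lfng was 237 and 486 CPM in control against 98.0, 79.9 and 154 in nonpermissive cells, and of Jag1 488 and 371 against 218, 307 and 214. Neither passed the test (edgeR adjusted p 0.273 for Lfng and 0.712 for Jag1).

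Over the list of 14 Notch pathway genes, 159 regions were assigned, 50 of them open in all 4 lists. Only 3 were nonpermissive-only (1.89%, against 1.61% of all regions) and 4 control-only (2.52%, against 1.92%). The median difference of the 50 was 0.12, against 0.04 over all regions tested, with 1 higher and 2 lower at an unadjusted p under 0.05 and 0 called. RNA was tested for 13 of these genes. Hes5 and Heyl fell, none rose, and the median log2 change was −1.64. Over all genes tested, 9 (0.0671%) rose and 17 (0.127%) fell.

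**Figure D4:**
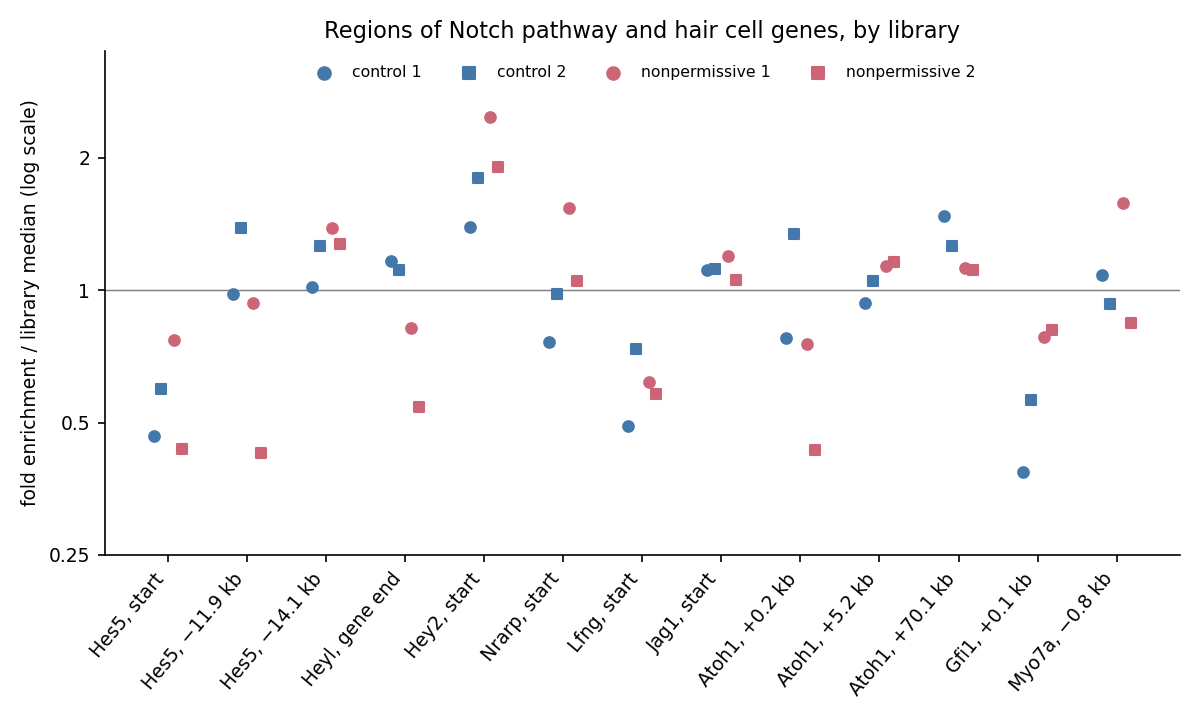
Fold enrichment divided by the library's median over regions in all 4 lists (vertical axis, log scale) at regions of Notch pathway and hair cell genes, 1 point per library; circles are replicate 1 and squares replicate 2, blue control and red nonpermissive. Points of both groups mix at the starts of Hes5, Lfng and Jag1. Both red points lie below both blue points at the Hes5 region 11.9 kb upstream (0.93 and 0.43 against 0.98 and 1.38) and at the first Atoh1 region. They lie above both blue points at the Hey2, Nrarp and Gfi1 starts.

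Of 12 hair cell transcription factor genes, 7 had a region open in all 4 lists within 1 kb of a start or gene end. Among all genes with an assigned region 13350 of 30518 had one, and among those in the RNA test 9958 of 13393. Atoh1, which starts hair cell development and whose reporter was used in the sort, had a region 0.23 kb beyond its start (chr6:64729358-64730057) with 5.20 and 6.18 in control and 2.92 and 2.85 in nonpermissive cells. Relative to the library medians these were 0.78, 1.34, 0.76 and 0.43, without overlap but with control 1 and nonpermissive 1 close together (limma difference −0.84, adjusted p 0.648). Permissive cells had 5.97 and 7.49 there. H3K27ac over this region was found in nonpermissive 1 only (3.84) among the control and nonpermissive lists, and in both permissive lists (31.4 and 5.58).

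Further regions of Atoh1 had deposited values that overlapped between the groups, and smaller differences. At 5.16 kb downstream the values were 6.25, 4.83, 4.40 and 7.66 (0.21), and at 70.1 kb downstream 9.83, 5.82, 4.35 and 7.34 (−0.29). Once centred, neither region overlapped, with nonpermissive cells higher at 5.16 kb and lower at 70.1 kb. The region at 70.1 kb again carried H3K27ac in nonpermissive 1 (5.32) and in both permissive lists (50.6 and 6.38). Atoh1 RNA was 3.55 and 2.28 CPM in control and 30.2, 41.1 and 67.2 in nonpermissive cells (log2 3.95 ± 0.57, SE, edgeR adjusted p 0.0127). Atoh1 RNA thus rose in cells sorted without the Atoh1 reporter, in 3 of 3 libraries, and the call was lost without control 1, control 2 or nonpermissive 3.

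Gfi1 and Pou4f3 encode transcription factors that act after Atoh1 in hair cells. The Gfi1 start region (chr5:107723691-107724274) had 2.58 and 2.59 in control and 3.03 and 5.35 in nonpermissive cells, which relative to the medians is 0.39, 0.56, 0.78 and 0.81 (limma difference 0.77, adjusted p 0.660). In permissive cells it was 4.49 and 9.87, and H3K27ac was present there only in permissive lists. Pou4f3 had 2 regions upstream or downstream of the gene, 14.8 kb away with 6.89, 6.10, 2.23 and 6.03 (−0.69) and 8.02 kb away with 13.0, 5.53, 8.28 and 13.2 (0.44). Pou4f3 RNA was 7.29 and 11.4 CPM in control and 24.6, 42.3 and 44.2 in nonpermissive cells, not past the test (edgeR adjusted p 0.171). The start of Myo7a, a myosin of the hair bundle, had 7.24, 4.29, 6.09 and 5.56 (0.20).

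To the 12 hair cell transcription factor genes, 142 regions were assigned and 33 were open in all 4 lists, with a median difference of 0.05 and 0 called. Nonpermissive-only regions numbered 4 (2.82%), 1 of them over the start of Neurod1 (2.74 and 3.24), which was also open in both permissive lists (3.89 and 10.2). The control-only region was within a gene 57.2 kb from Insm1 (6.50 and 3.05). RNA was tested for 11 of these genes, and Atoh1 alone rose. The bundle and synapse list had 309 regions, 40 of them open in all 4 lists (median difference 0.03, 0 called), 7 nonpermissive-only (2.27%) and 8 control-only (2.59%). Nonpermissive-only peaks lay at the starts of Lmo7 (3.15 and 3.74) and Myo15 (2.74 and 2.66), both also open in the 2 permissive lists (3.14 and 10.6 at Lmo7; 4.06 and 9.85 at Myo15). Of the 18 genes, Calb2, a calcium-binding protein, rose in RNA, from 1.68 and 3.99 to 20.7, 34.8 and 24.6 CPM (edgeR adjusted p 0.0267), a call lost when any of the 5 libraries was left out. Its gene-end region had 8.87, 6.61, 8.16 and 8.58 (0.26). Among the 6 Notch ligand genes of the hair cell lineage, 36 regions held 9 in all 4 lists, 1 nonpermissive-only and 2 control-only, with a median difference of −0.01.

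Of 16 pan supporting cell and prosensory genes, 15 had such a region in all 4 lists within 1 kb, against 9958 of 13393 genes in the RNA test. Sox2, a transcription factor of prosensory and supporting cells, had 6.35, 5.17, 3.81 and 7.72 at its start (0.06, a sign that changed with the scaling). Cdkn1b, the cell cycle inhibitor p27Kip1 that keeps supporting cells out of division, had 9.10, 7.73, 6.53 and 9.76 (0.06, a sign that also changed). These 16 genes had 317 regions, of which 56 were open in all 4 lists (median difference 0.06, 0 called), 14 were nonpermissive-only (4.42%, against 1.61% of all regions) and 6 control-only (1.89%, against 1.92%). Eya1, a transcriptional cofactor of ear development singled out after its values were seen, held 5 of the 14, with values from 1.93 to 2.79 in nonpermissive 1 and from 2.55 to 4.10 in nonpermissive 2. Its regions open in all 4 lists included 1 with 5.86 and 5.18 in control against 2.95 and 3.32 (−0.68, limma adjusted p 0.744). Pax2 had a nonpermissive-only peak 0.25 kb upstream of its start (3.01 and 3.52) and 2 control-only peaks within the gene. No RNA of this list passed the test, and its median log2 change was −0.49.

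The lists of supporting cell subtypes are given beside the shares of all regions, 1.61% nonpermissive-only and 1.92% control-only. Pillar and Deiters cell genes had 4 nonpermissive-only (1.79%) and 6 control-only (2.68%) regions of 224, and inner phalangeal and border cell genes 4 (4.0%) and 5 (5.0%) of 100, including a control-only region 21.5 kb upstream of Fabp7 (5.02 and 5.08). Genes of the ridges and of Hensen and Claudius cells had 4 (3.10%) and 3 (2.33%) of 129. Among the signalling lists, BMP and TGF-beta genes had 1 nonpermissive-only and 7 control-only regions of 163 (4.29% control-only), among them 1 lying 73.4 kb from the BMP antagonist Fst (4.73 and 5.34). FGF genes had 3 and 4 of 190 and Wnt genes 5 and 9 of 329. Immediate early and stress genes had 6 nonpermissive-only (3.75%) and 1 control-only region of 160, among them 1 at the start of Klf4 (2.57 and 3.18). Extracellular matrix, Hippo and cell cycle genes had 5 and 6 of 215, 4 and 5 of 205, and 1 and 1 of 143. In each of the 15 lists 0 regions were called, and the list medians ran from −0.03 to 0.14.

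No region of a gene past the RNA test was itself called. Of 13411 genes tested, 26 (0.194%) passed an adjusted p under 0.05 (edgeR quasi-likelihood), 9 higher and 17 lower. The count fell to 2 without nonpermissive replicate 3 and to 4 without control replicate 2. Of the 17 genes that fell, 12 had a region open in all 4 lists within 1 kb, 13 regions in all, whose differences ran from −0.77 (Heyl) to 0.52 (Sez6l) with a median of 0.14. Of the 9 that rose, 4 had such a region, from −0.84 (Atoh1) to 0.26 (Calb2) with a median of 0.17. Over all genes in the RNA test the median at such regions was 0.09. At any distance, 5 of the 38 regions open in all 4 lists had an unadjusted p under 0.05 (limma) for the genes that fell. For the genes that rose it was 1 of 12, and over all genes in the RNA test 1074 of 21948. Called were 0 regions of the genes that fell or rose, against 4 over all genes in the RNA test.

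Of the 16 genes with such a region, 5 are given as examples singled out after their values were seen (edgeR adjusted p 0.00569 to 0.0393). Each of these calls was lost without nonpermissive replicate 3, the only such loss for Syt6 and Ust. That of Sdc1 was lost when any of the 5 libraries was left out. The Daam2 call was also lost without control 1, control 2 or nonpermissive 2, and the Kdr call without control 1, control 2 or nonpermissive 1. Syt6, a synaptotagmin, had 140 and 128 CPM in control and 0.56, 1.14 and 0.96 in nonpermissive cells, and a region 0.97 kb upstream with 6.89, 6.25, 3.96 and 5.88 (−0.31). Daam2, a formin of Wnt signalling, had 103 and 91.9 against 7.26, 1.14 and 3.20 CPM, with 6.37, 4.04, 3.91 and 7.72 at its start (0.25). Ust, which sulphates glycosaminoglycans, had 158 and 145 against 15.1, 7.99 and 8.64 CPM, with 8.20, 5.17, 5.03 and 5.19 at its start (−0.22). The syndecan Sdc1 had 466 and 719 against 86.6, 24.0 and 84.8 CPM, and 4.68, 4.10, 4.27 and 6.86 at its start (0.44). Of the genes that rose, the endothelial receptor Kdr had 0.19 and 0.86 against 36.9, 14.3 and 62.4 CPM, with 4.90, 4.07, 2.90 and 6.95 at its start (0.14). The endothelial marker sums given above were higher in the same libraries.

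Over all genes with a symbol, 0.194% passed the RNA test. Within 100 kb of a nonpermissive-only region lay 1541 tested genes with a median log2 change of −0.12, 1 of which rose (Scn11a) and 4 of which fell (Dpysl4, Sdc1, Syt6 and Tmc5), 0.324% in all. Within 100 kb of a control-only region lay 1704 with a median of −0.15, of which Tmem255b rose and Lrmp, Rab3b, Sez6l, Syt6, Tmc5 and Ust fell, 0.411% in all. Syt6 and Tmc5 stood near both kinds. The median over all genes tested was 0.00.

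**Figure D5:**
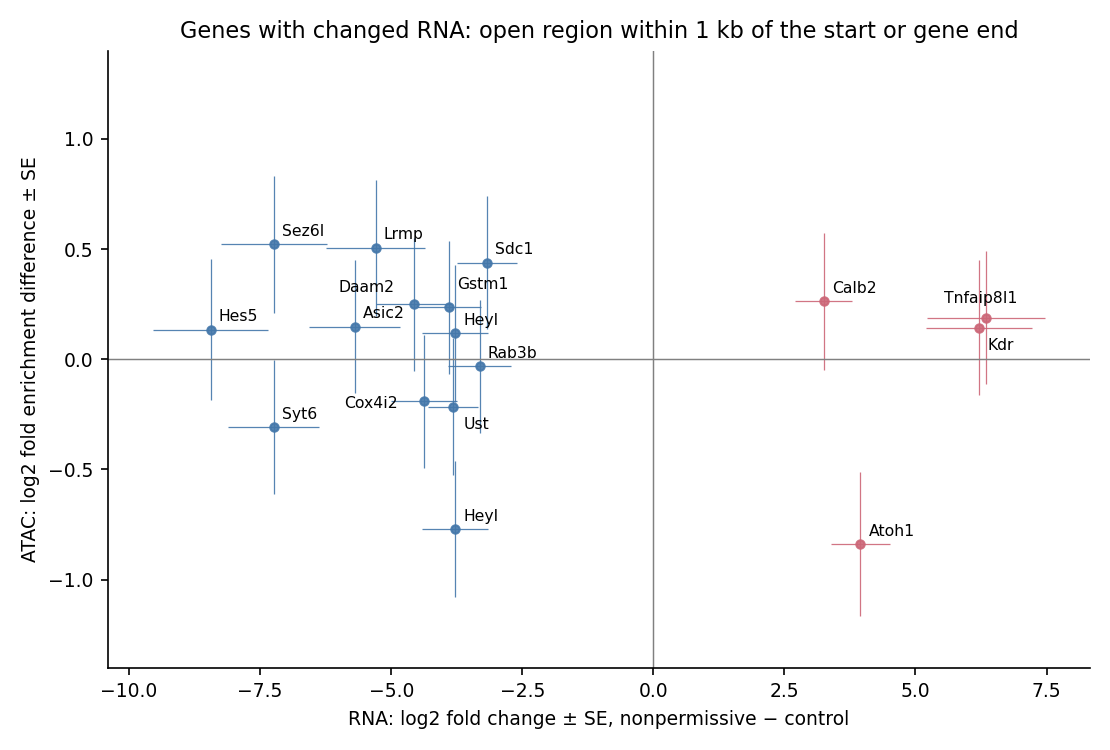
Log2 RNA change (horizontal, ± SE) against log2 ATAC fold enrichment difference (vertical, ± SE) for genes past the RNA test with a region open in all 4 lists within 1 kb; red rose and blue fell in RNA. RNA changes reach −8.45 (Hes5) while ATAC differences stay between −0.84 and 0.52; the fitted RNA folds of Kdr and Tnfaip8l1, with few counts in control, depend on the fit.

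Promoter windows were searched for 17 motifs, and the shares are given as a description with no test. Motifs were counted on both strands in windows from 250 bases before to 50 after a start, for 122 windows that overlapped a nonpermissive-only region, 119 a control-only region and 13418 a region in all 4 lists. The AP-1 letters TGANTCA were in 13 of 122 (10.7%) nonpermissive-only windows, among them that of Gja1, 19 bases before the start, and in 3 of 119 (2.52%) control-only windows. The share over all 32619 windows was 7.85%, and that over windows open in all 4 lists 4.14%. The RBPJ core was in 26.2%, 31.9% and 22.1% of nonpermissive-only, control-only and all-4-list windows. KLF and SP letters (GGGCGGG) were in 18% and 22.7% of the group-only windows and 49.9% of all-4-list windows, and the HES and HEY letters CACGNG in 23.8%, 22.7% and 42.6%. Some of these motifs can overlap in a GC-rich window, and a share describes letters, not binding.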

How the data were processed

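ATAC, H3K27ac CUT&RUN and RNA-seq were made from sorted supporting cells. Each deposited peak list gives a fold enrichment (a ratio of signal to local background) and a −log10 p-value and −log10 q-value per peak, all written by the authors' peak caller. The deposited RNA tables hold expected counts per gene. Bowtie2, MACS2, UMI-tools, STAR, RSEM and DESeq2 are named without roles or versions in the submitters' processing notes, with build mm10.

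A region takes each library's highest fold enrichment. Regions in all 4 lists were tested with limma 3.58.1 in R 4.3.3 on log2 values centred on each library's median, and rounded expected counts with edgeR 4.0.16 quasi-likelihood (filterByExpr, TMM, all 8 libraries at 48 h in the fit, totals 2165340 to 4896371), two-sided, with Benjamini-Hochberg adjustment over all regions or genes tested. CPM uses TMM-scaled library sizes, except in marker sums, which use plain totals. DESeq2 1.42.0 was an alternative. Other alternatives were list thresholds, overlap, scaling, filters, a replicate block and leaving out libraries. The tests were also run on simulated data with independent noise and large added changes. That run does not cover libraries that are alike across the groups, or small differences.

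Starts came from a RefSeq promoter table (GRCm38.p6, 26794 genes). For 7531 other genes both gene ends served as candidate starts, with the strand unknown, which departs from the planned nearest start. Exons and introns were not annotated, and motifs were searched in promoter windows instead of around summits, since no genome was used here. Of 48709 gene identifiers, 48349 matched a symbol.

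Named regions were the 12 with the highest lower value in each group-only class, the called regions in all 4 lists and the 5 largest in each direction without overlap where fewer than 5 passed, the 6 genes with the most group-only regions (7 where tied) and the regions of 13 fixed genes and 15 gene lists, of each list up to 3 regions per class. Genes past the RNA test and the promoter subsets were added after values were seen. Regions and lists were chosen with earlier results of these data known.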

Additional observations from a re-analysis of the deposited data

How the results depend on the processing

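The 4 called regions and 26 called genes kept their sign in every alternative that gave a value. Among named results that did not pass the test, the sign changed in 67 of 769 region values (32 of 81 regions) and 9 of 170 RNA values (7 of 19 genes). Over all named results, 778 region and 309 RNA values kept their side of the threshold, 10 and 7 moved past it and 17 and 88 no longer passed. The cause of each change below was not tested unless fewer samples or regions entered. With peaks of −log10 q of at least 5 there were 843 nonpermissive-only and 1518 control-only regions. Requiring 0.5 of the shorter peak to overlap gave 3904 and 4732, and equal list lengths 3700 and 4757. Leaving out a list loosens the rule: nonpermissive-only regions then numbered 5683 (without control 2) to 49925 (without nonpermissive 2) and control-only regions 6657 (without nonpermissive 1) to 50640 (without control 2). The 4 called regions became 0 without centring (315 at an unadjusted p under 0.05) and 0 after quantile normalisation (2727), all limma, and stayed 4 with log2(fold enrichment + 1). Of 18252 regions with −log10 q of at least 5 in all 4 lists, 0 were called (870 at an unadjusted p under 0.05, limma). The 4 called regions were not among those 18252. Leaving out a library gave 0 (without control 1) to 14 calls (without nonpermissive 1), 5 without control 2 and 1 without nonpermissive 2. The median difference over all regions was −0.09 without centring against 0.04, and 0.01 after quantile normalisation. The 26 RNA calls became 302 with no filter, 155 with DESeq2 and 25 with DESeq2 size factors, and 2 to 22 with a library left out (22 without control 1, 4 without control 2, 13, 14 and 2 without nonpermissive 1, 2 and 3).

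Replicate numbers pair samples by name only: deviations of same-numbered samples correlated at −0.13 over 38182 ATAC regions and 0.105 over 13411 genes, with 2 pairs each. With the replicate block 4 regions and 36 genes were called. A crossed replicate block, chosen after seeing the data, called 22 regions, 5 higher and 17 lower. Depth is not in the peak lists, so a missing peak cannot be told from a shallow library.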
